A study of Homo sapiens with 18 samples.

Results

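The regions described are the 823 widest H3K27me3 domains of control U937 cells, out of 10324 H3K27me3 domains called on chromosomes 1 to 22 in the first control library. A domain was taken when it was at least 300 kb wide in control replicate 1 and at least 90% of its length lay inside domains of control replicate 2. All 823 domains that met the width also met the second condition, with a lowest value of 90.9% and 365 domains lying entirely inside replicate 2 domains. Both control lists of this mark therefore chose the members, and every value of H3K27me3 set against the controls is given as a description with no test. H3K9me3, SETDB1, gene content and the difference between the knockouts were not used in the choice.

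U937 is an established human acute myeloid leukaemia line. Chromatin immunoprecipitation and sequencing of H3K27me3 and H3K9me3 was carried out in 3 genotypes: cells with a control guide (sgControl), cells lacking SUV39H1 (SKO), and cells lacking both SUV39H1 and SUV39H2 (DKO). Each mark has 2 libraries from each of them. A further 2 libraries hold SETDB1 peaks of unedited (WT) U937 cells, and the 4 input samples of the 18 samples were not analysed here. The sources used here do not say whether a knockout is 1 clone or a pool, or whether its libraries are from different cultures, and p-values may therefore measure technical spread alone.

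H3K27me3 is the methyl mark that Polycomb repressive complex PRC2 (catalytic subunits EZH1 and EZH2) places on histone H3, and it is found both over the promoters of silent developmental regulators and in broad domains over gene-poor, silent chromatin. H3K9me3 marks constitutive heterochromatin; SUV39H1 and SUV39H2 are among the enzymes that place it, SETDB1 is another, and HP1 proteins bind it. Both marks are usually described as occupying different parts of the genome, with overlap in broad domains of some cell types.

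The promoters shown here are those in 3 of the longest stretches with a matched promoter that had lost the mark and, likewise, those in 3 of the longest that kept it, so that a start that lost H3K27me3 can be read beside a start that did not. Each is the 250 bases before the first transcribed base, 5′ to 3′ on the gene's strand, from RefSeq on GRCh38.p14, with every CG in capitals. AGBL1 (chr15:86079370-86079619, plus strand, 7 CG), a gene of the cytosolic carboxypeptidase family, KY (chr3:134651023-134651272, minus strand, 21 CG), a muscle protein gene, and LRTM1 (chr3:54967103-54967352, minus strand, 2 CG), a leucine-rich repeat membrane protein gene, had their start in a stretch without H3K27me3 in all 4 knockout libraries.
AGBL1: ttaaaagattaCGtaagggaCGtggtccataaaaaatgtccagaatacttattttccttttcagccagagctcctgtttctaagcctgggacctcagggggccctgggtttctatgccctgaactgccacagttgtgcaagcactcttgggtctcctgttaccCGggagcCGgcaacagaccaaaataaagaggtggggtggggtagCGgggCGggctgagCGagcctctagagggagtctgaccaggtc
KY: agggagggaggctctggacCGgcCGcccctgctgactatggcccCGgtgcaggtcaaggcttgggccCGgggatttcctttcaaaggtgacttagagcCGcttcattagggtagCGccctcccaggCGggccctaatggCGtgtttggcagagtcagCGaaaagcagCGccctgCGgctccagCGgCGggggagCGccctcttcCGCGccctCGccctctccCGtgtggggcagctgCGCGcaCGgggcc
LRTM1: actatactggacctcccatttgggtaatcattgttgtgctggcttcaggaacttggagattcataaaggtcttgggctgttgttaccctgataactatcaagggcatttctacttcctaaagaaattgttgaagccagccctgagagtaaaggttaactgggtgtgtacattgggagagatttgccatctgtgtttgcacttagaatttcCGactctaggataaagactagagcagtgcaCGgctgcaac
SLC10A2 (chr13:103066418-103066667, minus strand, 4 CG), the ileal bile acid transporter gene, FMN2 (chr1:240091633-240091882, plus strand, 29 CG), a formin gene, and NALF1 (chr13:107867497-107867746, minus strand, 28 CG), which encodes an auxiliary factor of the sodium leak channel, had theirs in a stretch covered in all 6 libraries.
SLC10A2: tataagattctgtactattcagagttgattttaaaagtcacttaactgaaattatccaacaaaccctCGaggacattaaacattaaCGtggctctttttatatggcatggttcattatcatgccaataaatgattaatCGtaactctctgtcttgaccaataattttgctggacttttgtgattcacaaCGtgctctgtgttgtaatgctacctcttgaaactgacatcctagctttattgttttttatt
FMN2: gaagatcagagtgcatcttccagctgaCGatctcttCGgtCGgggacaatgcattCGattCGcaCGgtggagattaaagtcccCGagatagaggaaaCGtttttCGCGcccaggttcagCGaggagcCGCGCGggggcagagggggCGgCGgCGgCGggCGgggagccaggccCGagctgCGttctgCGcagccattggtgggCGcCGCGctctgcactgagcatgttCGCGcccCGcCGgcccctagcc
NALF1: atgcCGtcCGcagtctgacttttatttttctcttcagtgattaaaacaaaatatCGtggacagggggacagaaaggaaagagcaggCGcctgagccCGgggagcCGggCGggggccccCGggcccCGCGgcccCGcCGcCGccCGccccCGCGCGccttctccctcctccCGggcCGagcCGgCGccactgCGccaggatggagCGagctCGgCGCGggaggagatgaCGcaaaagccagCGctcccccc
The letters CG read the same on both strands. The 32 gene starts in stretches lost in all 4 knockout libraries had a median of 7.5 CG in these 250 bases and 43.8% had 10 or more, the 629 starts in stretches kept in all 6 libraries had a median of 6 and 43.4% had 10 or more, and the 15100 matched promoters of all genes had a median of 17 and 69.0% had 10 or more. Both sets inside the very wide domains thus had fewer CG than promoters at large, and lost and kept starts had nearly the same share with 10 or more.

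The 10 measured myeloid marker genes, among them SPI1, CEBPA, CSF1R and LYZ, carried no H3K27me3 domain in both sgControl libraries, whereas 3 of 15 marker genes of other cell types did (HBB, MYOD1 and NEUROD1). No marker gene lay in a very wide domain. The H3K27me3 libraries held 45.5 to 67.6 M reads (M, mega) in called domains and the H3K9me3 libraries 16.1 to 23.3 M. H3K27me3 domains together spanned 1022 to 1148 Mb per library and H3K9me3 domains 737.1 to 1028 Mb, with the sgControl libraries lowest for the former and highest for the latter.

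The very wide domains made up 7.97% of the control domains and 47.8% of their length, 488.7 Mb in all or 17.0% of chromosomes 1 to 22. Their widths ran from 300.8 to 2890.4 kb with a median of 478.4 kb, and 89 were at least 1 Mb wide. Chromosome 2 held 86, chromosome 3 held 85 and chromosome 8 held 84, and they took up 42.9% of chromosome 18. Protein-coding gene bodies filled 38.5% of their length, 228 domains (27.7%) touched no protein-coding gene, and they held 1.52 gene starts per Mb against 2.71 in the other control domains and 6.97 outside control domains. SETDB1 peaks of WT cells numbered 0.964 per Mb in the very wide domains, 2.45 in the other control domains and 5.54 outside. At the width threshold, the 3 narrowest members measured 300.8 kb and were 95.7%, 83.8% and 100% covered in SKO replicate 1, and the 3 widest domains left out measured 300.0 kb and were 91.5%, 90.9% and 100% covered in the same library.

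In both knockouts the very wide domains stayed almost fully covered by H3K27me3 but were cut into more pieces. H3K27me3 covered 100% (by construction) and 99.5% of their summed length in the sgControl libraries, 95.8% and 95.6% in SKO and 95.4% and 94.8% in DKO. The number of separate called domains lying in them was 823 and 1152 in the sgControl libraries, 2128 and 2247 in SKO and 2177 and 2411 in DKO. Cover was thus a few percent of the length lower, and SKO and DKO overlapped each other in the number of pieces. The choice of members fixed sgControl replicate 1 at 100% and 823 pieces and required high cover in replicate 2. Nothing is therefore read from the separation of the knockout libraries from the control libraries.

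The largest single piece held a median of 99.8% of a domain in sgControl replicate 2, 81.5% and 77.8% in SKO and 80.8% and 75.7% in DKO. A domain was called whole when 1 called domain spanned at least 90% of it, and 634 were whole in sgControl replicate 2, 340 and 318 in SKO and 346 and 313 in DKO. Domains in 5 or more pieces numbered 7 in sgControl replicate 2, 109 and 119 in SKO and 110 and 147 in DKO. Both knockouts lay below the second control library in these measures, but the rule asked for overlap with that library, so it is a favoured comparison.

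**Figure D1:**
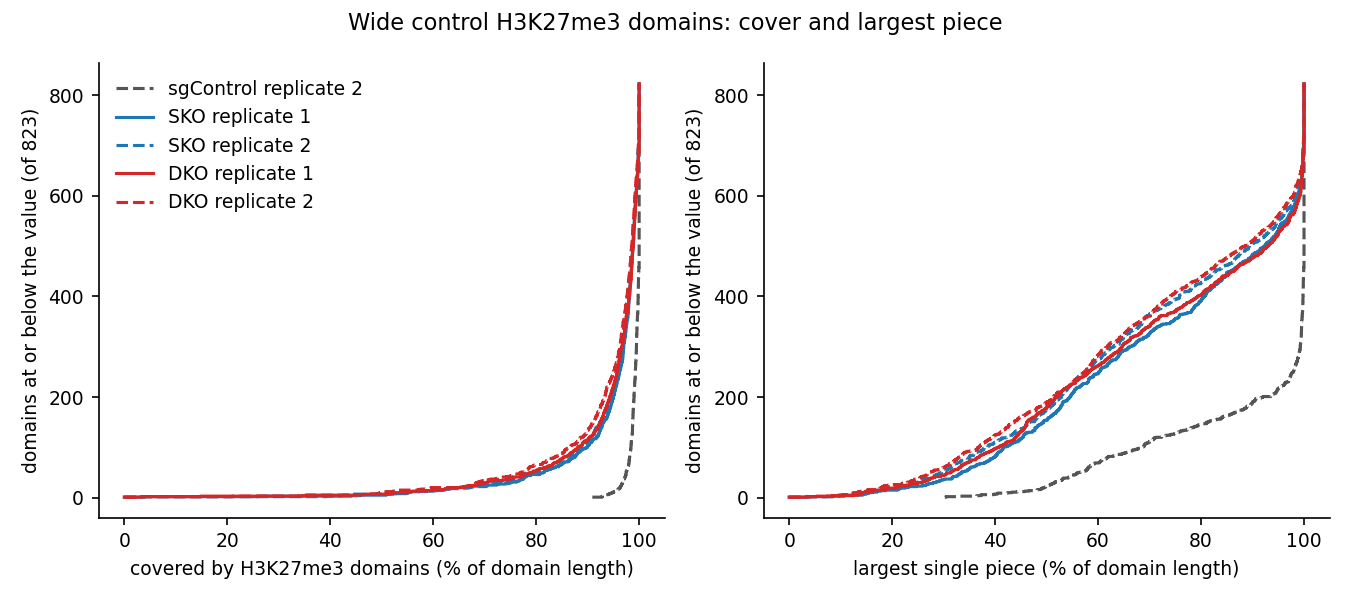
Number of very wide domains (of 823, vertical axis) at or below each value of H3K27me3 cover (left) and of the largest single piece (right), both in percent of domain length on the horizontal axis, 1 line per library. The 4 knockout lines lie close together in both panels and are farther from the sgControl replicate 2 line for the largest piece, where the medians are 75.7% to 81.5% against 99.8%. SgControl replicate 1 is 100% throughout by construction and is not drawn.

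Most breaks were short. The median gap was 4.8 kb in each knockout library and 4.0 kb in sgControl replicate 2, where the shortest gap the calls allow is 4.0 kb. Gaps of 20 kb or more numbered 1 in sgControl replicate 2, 217 and 232 in SKO and 250 and 268 in DKO, and gaps of 100 kb or more numbered 0, 22 and 22, and 20 and 23. When gaps of up to 10 kb were joined in every library, 815 domains were whole in sgControl replicate 2, 679 and 672 in SKO and 653 and 640 in DKO. The number of broken domains thus depends by more than 1.5 times on short gaps, and with them closed both knockouts still had fewer whole domains than the control library.

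Taking both libraries of a genotype together, 249 of the 823 domains (30.3%) were whole in SKO and 249 were whole in DKO. A further 381 in SKO and 368 in DKO were in pieces, meaning at least 75% covered in both libraries with no piece reaching 90%. Shrunken domains, with 25% to 75% covered in both libraries, numbered 27 in SKO and 32 in DKO, lost ones, with under 25%, numbered 2 and 3, and the libraries fell on different sides of a boundary for 164 and 171. By the rule that the libraries do not overlap and the nearest pair differs by at least 25 percentage points, 29 domains lost cover in SKO (3.52%, with 18.8% of all 9630 control domains of at least 10 kb called) and 35 in DKO (4.25%, with 19.6% called), and none gained. Cover of a control-chosen domain can hardly rise, and nothing is read from these shares.

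Because the members were chosen in sgControl, the roles of the genotypes were also exchanged. Of 821 domains of at least 300 kb chosen in SKO by the same rule, 463 (56.4%) were whole in sgControl, 128 were in pieces and 81 (9.87%) were under 25% covered in both control libraries. Of 792 chosen in DKO, 411 (51.9%) were whole in sgControl, 146 were in pieces and 76 (9.60%) were under 25% covered. Within the genotype that chose them, 520 of the SKO domains (63.3%) and 469 of the DKO domains (59.2%) were whole in both libraries, against 634 of 823 for sgControl. The SKO and DKO domains were thus whole in sgControl somewhat less often than in their own libraries, while the sgControl domains were whole in the knockouts in 30.3%. Cover under 25% was counted for 81 and 76 domains chosen in a knockout and for 2 and 3 chosen in sgControl. None of these differences was tested.

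Break-up was seen at all widths. Among the 268 domains of 300 to 400 kb, 43.7% and 42.9% were whole in SKO and 41.4% and 38.4% in DKO, and among the 89 of at least 1 Mb, 26.97% and 25.84% were whole in SKO and 36.0% and 31.5% in DKO. Per Mb, the narrowest group had 6.69 and 6.96 pieces in SKO and the widest 2.38 and 2.61, against 3.99 and 1.04 in sgControl replicate 2. An unbroken domain counts as 1 piece, so pieces per Mb fall with width without any break, from 2.90 to 0.724 in sgControl replicate 1. Per domain, the narrowest group had a mean of 2.31 and 2.40 pieces in SKO and 2.36 and 2.58 in DKO. The widest group had 3.29 and 3.61 in SKO and 3.34 and 3.71 in DKO. In sgControl replicate 2 these means were 1.38 and 1.44. The widest domains were the least often whole in SKO.

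Several of the widest members carry very long genes. The widest, chr2:139538401-142428800 (2890.4 kb) over LRP1B, a gene of the low-density lipoprotein receptor family, was in 1 and 4 pieces in sgControl, 2 and 3 in SKO and 5 and 6 in DKO, with at least 99.2% covered in every library. The member over RBFOX1, a neuronal splicing regulator gene (chr16:5267201-8057600), went from 1 and 2 pieces to 7 and 10 in SKO and 5 and 5 in DKO with at least 98.1% covered. The member over KLHL1, a gene of the Kelch-like family (chr13:67685601-70163200), had 1 and 2 pieces in SKO and 3 and 2 in DKO and at least 99.6% cover. Apart from AUTS2 on chromosome 7, given with that chromosome, these domains were at least 98.1% covered in every library, and the number of pieces in a knockout ranged from 1 to 10.

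Loss to under 25% cover was rare, and the 2 domains lost in SKO were also lost in DKO. The domain chr3:64509601-64834400 (324.8 kb) over the secreted metalloprotease gene ADAMTS9 was 100% and 97.0% covered in sgControl and 0% covered in all 4 knockout libraries. The gene-free domain chr12:3874401-4242400 (368 kb) was 100% and 99.6% covered in sgControl, 3.9% and 3.3% in SKO and 3.3% and 2.2% in DKO. The domain chr15:85843201-86206400 (363.2 kb), which holds the AGBL1 start printed above, was at 100% in both sgControl libraries, 26.0% and 39.2% in SKO and 14.8% and 20.9% in DKO, so it counted as lost in DKO and as shrunken in SKO. In none of these did a knockout library reach the control libraries.

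H3K9me3 differed between these lost domains. It covered 86.0% and 85.5% of the ADAMTS9 domain in sgControl, 80.3% and 85.7% in SKO and 67.5% and 69.7% in DKO, and 87.2% and 81.3%, 90.3% and 89.6%, and 91.9% and 89.6% of the AGBL1 domain. In the gene-free domain on chromosome 12 it covered 22.6% and 4.6%, 13.9% and 10.4%, and 4.8% and 5.2%. Loss of H3K27me3 thus occurred in domains that stayed largely in H3K9me3 and in a domain that had little of it.

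Shrunken domains lay over genes of several kinds. On chromosome 14 the domain chr14:104082401-104652000, over the kinesin-family gene KIF26A, was 44.1% and 41.7% covered in SKO and 68.5% and 58.6% in DKO, against 100% and 97.3% in sgControl. The gene-free domain chr1:38048801-38828800 had 45.8% and 42.5% in SKO and 35.4% and 33.9% in DKO, against 100% and 99.2%. At the urea transporter gene SLC14A2 the domain chr18:45209601-45536800 had 50.9% and 50.1% in SKO and 46.7% and 45.0% in DKO, against 100% in both controls, and H3K9me3 stayed between 97.6% and 100% in all 6 libraries. KIF26A was covered less in SKO than in DKO and the chromosome 1 domain less in DKO than in SKO, and in both cases the libraries of the knockouts did not overlap.

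The domain in the most pieces in SKO lay on chromosome 18. The 1008 kb domain chr18:33324001-34332000, over NOL4, CCDC178 and the Polycomb-associated gene ASXL3, was 1 piece in both sgControl libraries, 21 and 21 pieces in SKO and 23 and 19 in DKO. Its cover was 77.7% and 71.5% in SKO and 80.1% and 74.8% in DKO, and its H3K9me3 went from 74.5% and 66.8% in sgControl to 0% in all 4 knockout libraries. The domain over SETBP1, a gene mutated in myeloid neoplasms (chr18:43719201-44979200), went from 1 piece to 12 and 14 in SKO and 13 and 13 in DKO. Of the 56 members on chromosome 18, 6 were whole in SKO and 8 in DKO, and 8 were shrunken or lost in each. The read density of chromosome 18 is given below with that of chromosome 7, and its part in the breaks was not tested.

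**Figure D2:**
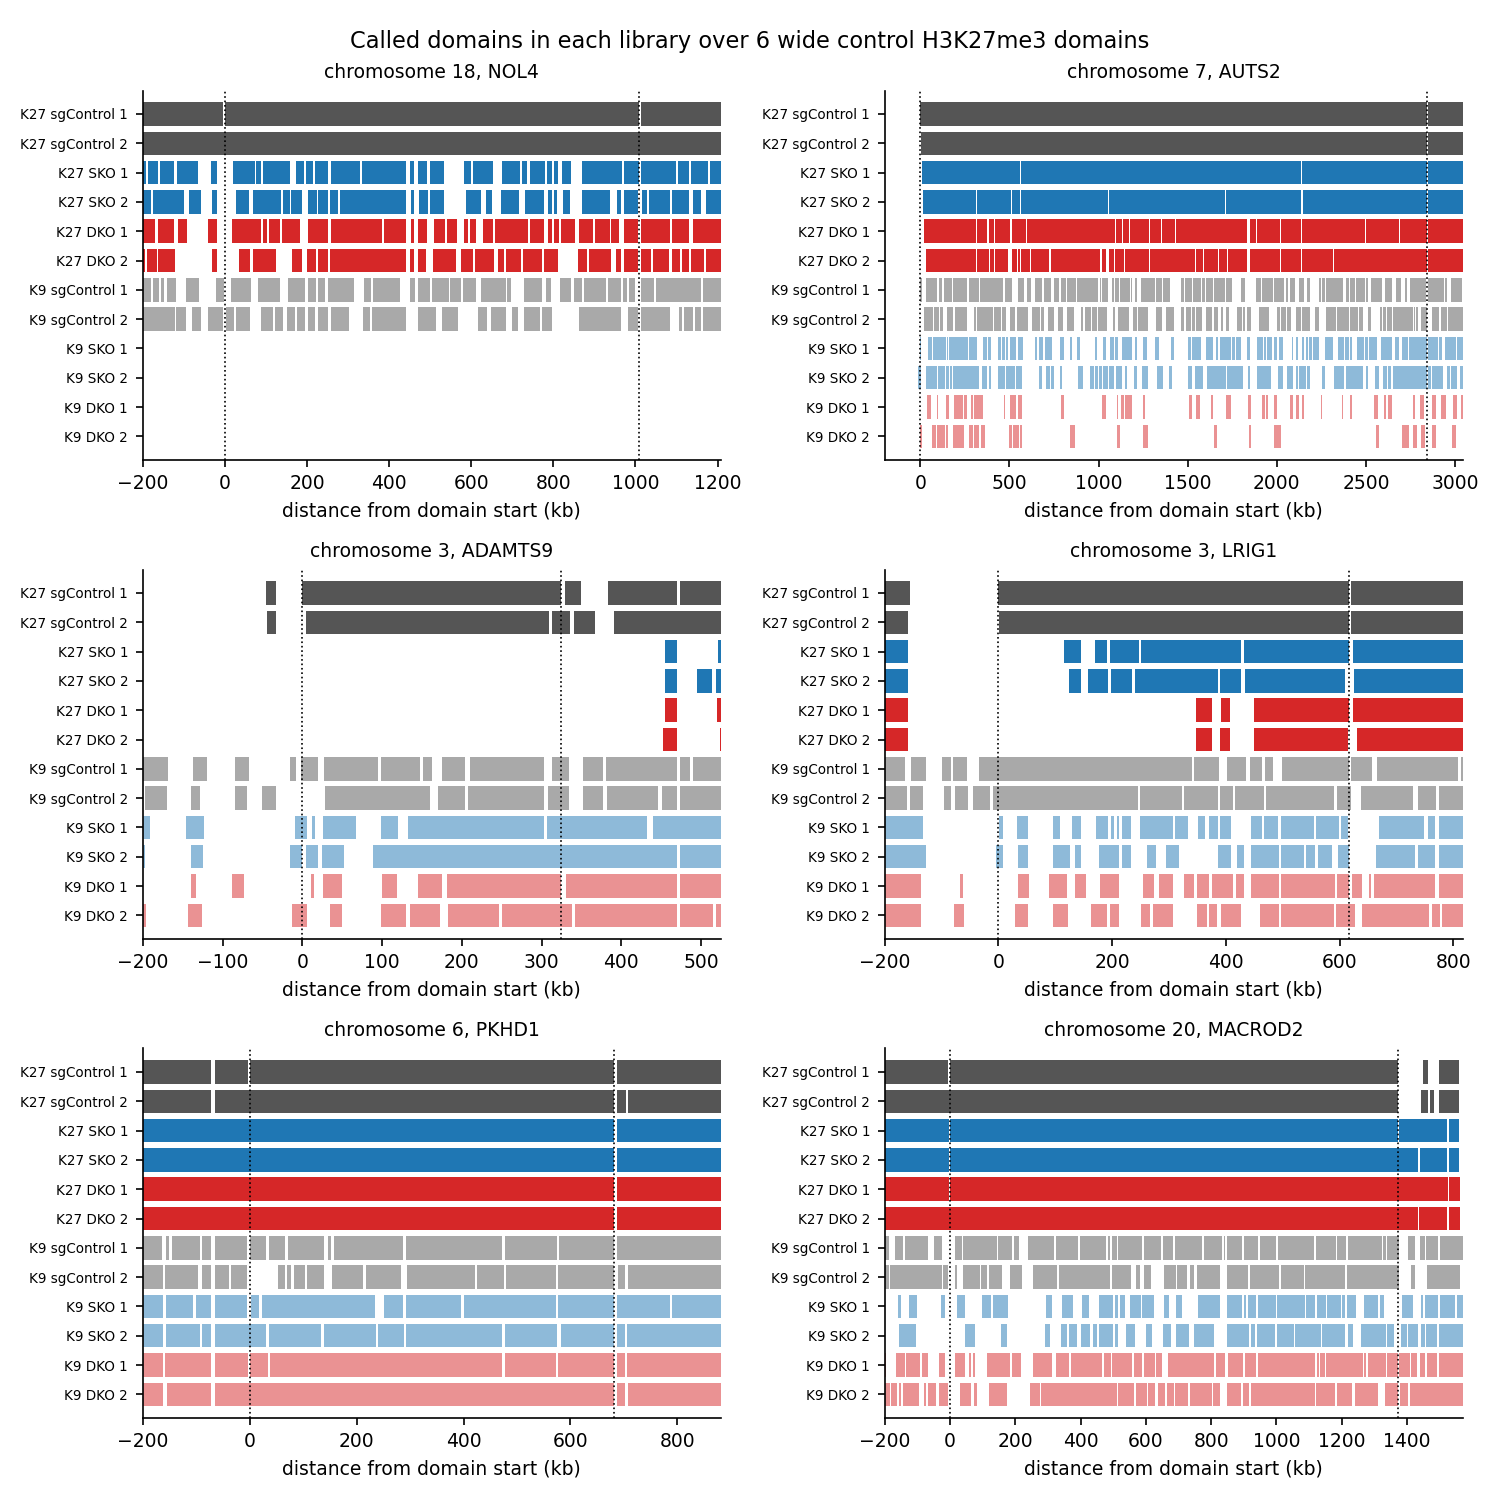
Called domains of H3K27me3 (dark) and H3K9me3 (pale) in each library over 6 very wide control domains, with distance from the domain start in kb on the horizontal axis, 1 row per mark (K27, K9) and library (sgControl grey, SKO blue, DKO red) and dotted lines at the start and end. The NOL4 domain on chromosome 18 is cut into 19 to 23 pieces in the knockouts and has no H3K9me3 there, the ADAMTS9 domain has no H3K27me3 left between its dotted lines, and the AUTS2 domain is cut mainly in DKO.

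Most edges stayed near their control position. Of the 1646 edges, 66.7% and 65.4% lay within 10 kb of the control position in SKO and 65.1% and 62.1% in DKO, compared with 71.6% in sgControl replicate 2. Edges set back by at least 50 kb in both libraries numbered 36 in SKO and 38 in DKO, and none was set back that far in sgControl replicate 2. Edges from which the called domain reached at least 50 kb further out in both libraries numbered 160 in SKO and 167 in DKO. SgControl replicate 2 alone had 306 such edges, against 231 and 237 in the single SKO libraries and 248 and 255 in the single DKO libraries, so extension was no more frequent in a knockout library than between the control libraries.

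Of the extended edges, 75 in SKO and 75 in DKO were not extended in sgControl replicate 2, whereas 146 and 133 edges extended in sgControl replicate 2 were extended in neither library of the knockout. The longest extension lay at PKHD1, the fibrocystin gene (chr6:51193601-51875200). There the called domain reached 1702.4 kb beyond the left edge in both SKO libraries and 1703.2 and 1700 kb in DKO, against 65.6 kb in sgControl replicate 2, and it took in the neighbouring member over the transcription factor genes TFAP2B and TFAP2D (chr6:49796001-51121600), which was 3 pieces in sgControl replicate 2 and 1 piece in each knockout library. At GPC5, a glypican gene (chr13:92244001-92685600), the left reach was 0 kb in both sgControl libraries, 877.6 and 878.4 kb in SKO and 878.4 kb in both DKO libraries. Joining of neighbouring members in both libraries was found for 35 pairs in SKO and 41 in DKO. By single library, called domains that joined 2 or more members numbered 61 in sgControl replicate 2, 48 and 55 in SKO and 49 and 57 in DKO. Joining was thus no more frequent in a knockout library than between the control libraries.

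The members kept most whole included some of the widest. At the macrodomain gene MACROD2 the 1371.2 kb domain chr20:15138401-16509600 was 1 piece with at least 99.9% cover in all 6 libraries, and the TFAP2B domain was 1 piece with 100% cover in all 4 knockout libraries. The domain over the axon guidance receptor gene DCC (chr18:51971201-53513600) was 3 pieces in both SKO libraries and 1 piece in both DKO libraries. On chromosome 13, 25 of 42 members were whole in SKO and 28 in DKO, in contrast to chromosome 18.

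Domains that stayed whole had more of both marks in the control than those that went to pieces. The 249 domains whole in SKO had 1.17 and 1.16 H3K27me3 reads per kb per M reads in domains in sgControl, and the 381 in pieces had 1.01 and 1.01. H3K9me3 covered 84.8% and 83.4% of the former in sgControl and 65.4% and 63.1% of the latter. For DKO the read densities were 1.22 and 1.20 against 1.01 and 1.01, and H3K9me3 covered 84.9% and 83.4% against 66.4% and 64.3%. Gene bodies filled 40.1% of the domains whole in SKO and 40.6% of those in pieces, and SETDB1 peaks numbered 0.917 and 0.948 per Mb. Neither of these set whole domains apart from those in pieces. The 27 shrunken domains of SKO had 33.0% in gene bodies and 2.05 SETDB1 peaks per Mb, and the 32 of DKO 34.9% and 2.68. SETDB1 peaks numbered 10.1 per Mb in the 2 domains lost in SKO and 6.63 in the 3 lost in DKO. Read density belongs to the mark that chose the members, and these values are a description.

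H3K9me3 over the very wide domains was lower in both knockouts, and more so in SKO than in DKO. It covered 73.4% and 71.4% of their summed length in sgControl, 41.9% and 41.5% in SKO and 54.6% and 53.3% in DKO, with no overlap between genotypes. With the lists of each mark reduced to the same covered length by score, mean cover was 59.2% in sgControl, 41.7% in SKO and 51.9% in DKO. The order was kept, and the size of the fall depends on the total length called in each library. The median domain was 82.9% ± 1.14 covered in sgControl, 32.4% ± 1.16 in SKO and 53.7% ± 2.30 in DKO (SD, n = 2). Domains with most of their length in H3K9me3 numbered 626 and 617 in sgControl, 327 and 322 in SKO and 436 and 426 in DKO.

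With limma on the H3K9me3 cover of all 9630 control H3K27me3 domains of at least 10 kb, a call needed a Benjamini-Hochberg adjusted p under 0.05 and a difference of at least 25 percentage points. In SKO against sgControl, 334 of the 823 very wide domains fell (40.6%, against 13.3% of all domains tested) and 7 rose (against 0.654%). In DKO against sgControl, 267 fell (32.4%, against 11.7%) and 33 rose (against 1.41%). A domain with less than 25% control cover cannot be called as a fall. Mean sgControl cover was 72.4% in the very wide domains, 51.9% in domains of 100 to 300 kb and 34.4% in those of 10 to 100 kb. This lowers the share of falls over all domains, and the shares were not matched for control cover. The median difference over the very wide domains was -22.4 percentage points in SKO and -10.3 in DKO. Both comparisons use the same control libraries. With every H3K9me3 list reduced to the same covered length by score, the falls called were 166 in SKO and 141 in DKO and the rises 23 and 76, so the counts depend on the total length called in each library. The 7 rises in SKO were 3 without SKO replicate 1, and the 33 in DKO were 20 without sgControl replicate 2, 12 without DKO replicate 1 and 17 without DKO replicate 2.

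The deepest falls left almost no H3K9me3. In the gene-free domain chr2:194050401-194808000 cover was 98.7% and 99.5% in sgControl, 5.1% and 0% in SKO and 29.3% and 24.0% in DKO (SKO minus sgControl -96.6 percentage points, SE 2.86, limma adjusted p = 0.000573), while its H3K27me3 stayed at 98.5% or more. Over the sulfotransferase gene CHST9 (chr18:27005601-27445600) it was 96.5% and 94.5% in sgControl, 0% in both SKO libraries and 3.1% and 6.9% in DKO (SKO minus sgControl -95.5, SE 1.81, limma adjusted p = 0.000215). Over KLHL14 (chr18:32551201-32856800) the SKO libraries were at 0% after 93.2% and 96.3% in sgControl (-94.8, SE 5.95, limma adjusted p = 0.0034). In each of these the H3K27me3 domain remained, with 91.4% or more covered in every knockout library.

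A few members rose. Over DPP6, an auxiliary potassium channel subunit gene (chr7:154163201-154660000), H3K9me3 covered 40.4% and 22.9% in sgControl, 87.9% and 91.1% in SKO and 58.8% and 57.8% in DKO (SKO minus sgControl 57.9, SE 6.72, limma adjusted p = 0.0152). The gene-free domain chr14:97082401-98314400 went from 21.2% and 14.03% to 64.1% and 65.6% in SKO and 81.0% and 83.9% in DKO (DKO minus sgControl 64.8, SE 3.04, limma adjusted p = 0.00184), while its H3K27me3 was 86.4% to 86.6% in the knockouts. Over TMEM114 (chr16:8061601-8566400) cover was 4.6% and 6.2% in sgControl, 14.9% and 8.4% in SKO and 64.7% and 55.0% in DKO (DKO minus sgControl 54.4, SE 4.48, limma adjusted p = 0.00675). Over RGS6, a regulator of G protein signalling (chr14:71982401-72409600), cover was 55.6% and 47.2% in sgControl, 94.6% and 88.8% in SKO and 96.4% and 97.4% in DKO (SKO minus sgControl 40.3, SE 3.87, limma adjusted p = 0.00939). The named rises thus started from control cover between 4.6% and 55.6%.

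**Figure D3:**
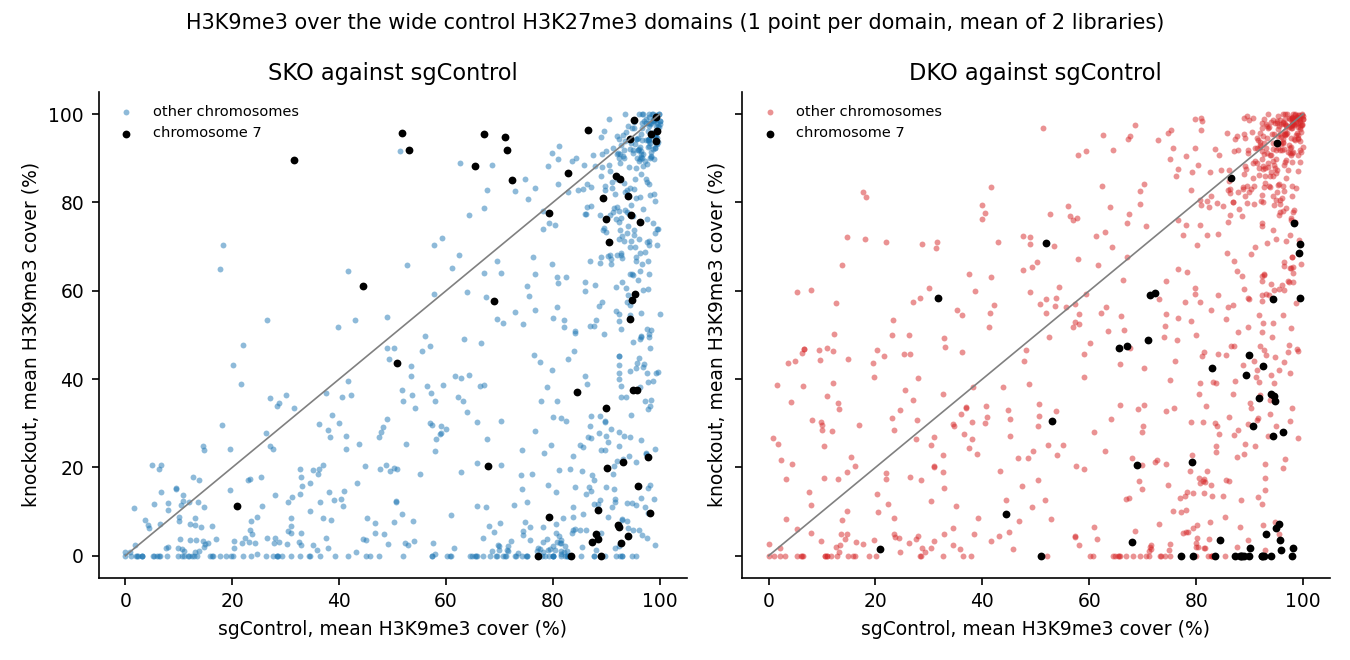
H3K9me3 cover of each very wide domain in percent of its length, with the mean of the 2 sgControl libraries on the horizontal axis and the mean of the 2 SKO (left) or DKO (right) libraries on the vertical axis, 1 point per domain and the line of equality in grey. Most points lie below the line in both panels, and the chromosome 7 domains (black) lie lower in DKO, where 41 of the 54 fell, than in SKO, where 24 fell.

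H3K9me3 falls were called both in domains that stayed whole and in domains that broke up. In SKO, 40.2% of the 249 whole domains and 37.3% of the 381 in pieces had a called fall, with median differences of -18.8 and -21.5 percentage points. In DKO, 21.7% of the 249 whole domains and 38.0% of the 368 in pieces had one, with medians of -4.30 and -13.0. The shares stood apart in DKO and not in SKO, and the difference between the classes was not tested. In DKO, chromosome 7 held 36 of the domains in pieces and 2 of the whole ones, and 41 of its 54 members had a called fall. The shares by class are not given without that chromosome.

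Inside the domains, the stretches that lost H3K27me3 had less H3K9me3 in the control than the stretches that kept it. H3K9me3 covered 75.3% and 73.3% in sgControl, 43.4% and 42.9% in SKO and 57.3% and 55.9% in DKO of the 449.5 Mb kept in all 6 libraries. Of the 10.4 Mb lost in all 4 knockout libraries it covered 58.7% and 54.9%, 36.0% and 35.5%, and 32.8% and 34.3%. H3K9me3 was thus higher in DKO than in SKO in the kept stretches and slightly lower in DKO than in SKO in the lost ones. The lost stretches also held 3.07 gene starts and 6.04 SETDB1 peaks per Mb, against 1.40 and 0.725 in the kept stretches.

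**Figure D4:**
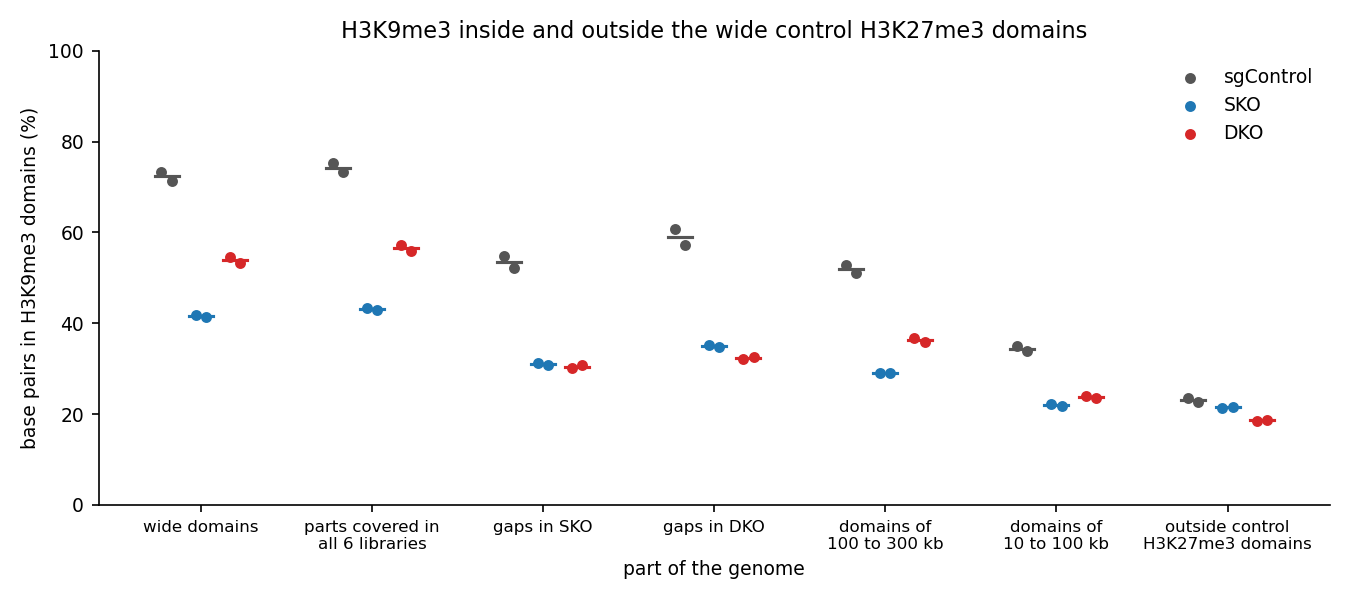
Percent of base pairs in H3K9me3 domains (vertical axis) for each library (points, with the mean of 2 libraries as a bar) in the very wide domains, in their stretches kept in all 6 libraries and lost in both SKO or both DKO libraries, in narrower control H3K27me3 domains and outside them. The order sgControl, DKO, SKO seen in the very wide domains, at 72.4%, 54.0% and 41.7%, is weaker in domains of 10 to 100 kb, at 34.4%, 23.7% and 22.1%, and DKO is lowest outside control H3K27me3 domains.

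The longest lost stretch common to both knockouts was 308.8 kb of the chromosome 12 domain named above, followed by 304 kb at ADAMTS9. A 236 kb stretch without a protein-coding gene (chr2:122623201-122859200) was uncovered in both SKO libraries and kept 93.6% and 91.5% H3K9me3 there. At ZNF536, a zinc finger gene (chr19:30526401-30716800), 190.4 kb were uncovered in all 4 knockout libraries. At LRIG1, which encodes a negative regulator of receptor tyrosine kinases, 114.4 kb were uncovered in both SKO libraries and 345.6 kb in both DKO libraries.

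DKO and SKO were next compared with each other. For H3K27me3 cover, limma over all 6 libraries called 7 members lower in DKO than in SKO (0.851%, against 1.09% of all domains tested), 6 of them on chromosome 7, and 0 higher (against 0.613%). At an unadjusted p under 0.05, 104 were lower and 61 higher. The spread in that fit includes the control libraries that chose the members. With the 4 knockout libraries alone no member was called in either direction, and 20 were lower and 32 higher at an unadjusted p under 0.05. In simulated data the fit over all 6 libraries found 0 of 100 members lowered by 40 percentage points in DKO against sgControl. DKO against SKO and the fit of the 4 knockout libraries were not simulated. Neither count is therefore taken to tell how many members differ, and the differences are given as values. The member outside chromosome 7 was the LRIG1 domain (chr3:66379201-66996000), at 74.6% and 73.2% in SKO and 34.5% in both DKO libraries.

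Other members had more H3K27me3 in DKO than in SKO in both libraries. At ISX, an intestinal homeobox gene (chr22:34822401-35165600), H3K27me3 cover was 54.5% and 62.7% in SKO and 77.4% and 72.5% in DKO. At FRMD4B (chr3:69428801-69736800) it was 82.3% and 81.6% in SKO and 97.7% and 96.6% in DKO, and the domain was in 5 and 5 pieces in SKO and 2 and 1 in DKO. Both DKO libraries lay above both SKO libraries for 150 members and below them for 170. With 2 libraries per knockout such an order also arises without a difference. The share over all domains was not counted, so nothing is read from these counts.

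For H3K9me3, 40 members were higher in DKO than in SKO (4.86%, against 0.955% of all domains tested) and 15 were lower (1.82%, against 0.727%), all 15 on chromosome 7. The higher ones included PCDH9, a protocadherin gene (chr13:66743201-67494400), at 98.8% and 97.4% in sgControl, 14.1% and 17.9% in SKO and 66.6% and 61.6% in DKO (DKO minus SKO 48.1, SE 2.52, limma adjusted p = 0.0186). The domain over the neurotrophin gene NTF3 and the chloride channel gene ANO2 (chr12:5290401-5667200) was at 17.0% and 10.4%, 15.1% and 19.1%, and 67.5% and 64.1% (48.7, SE 3.26, limma adjusted p = 0.0247), so that DKO stood above the control there. Both counts were 0 when the fit was limited to domains of at least 50 kb, and they were 2 and 0 without sgControl replicate 1 and 1 and 0 without sgControl replicate 2. Without DKO replicate 1 they were 18 and 10, without DKO replicate 2 they were 24 and 8, and without SKO replicate 1 or 2 they were 11 and 5 or 11 and 6. With chromosome 7 left out of the fit, 21 were higher.

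Most chromosome 7 members were broken in DKO. Of the 54, 36 were in pieces, 6 shrunken or lost and 2 whole in both DKO libraries, against 17, 0 and 25 in SKO. By single library, 42 were whole in sgControl replicate 2, 28 and 34 in SKO and 6 and 4 in DKO, and their pieces numbered 75, 104 to 111, and 295 and 359. H3K27me3 cover was 97.9% and 97.8% in SKO and 89.1% and 87.2% in DKO, and H3K9me3 cover was 84.7% and 81.7% in sgControl, 52.3% and 52.5% in SKO and 24.9% and 24.0% in DKO. The other 769 members had 2017 and 2143 pieces in SKO and 1882 and 2052 in DKO. More pieces in DKO than in SKO were therefore found on chromosome 7 and not over the other 769.

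The density of reads moved with this. H3K27me3 domains lying in the chromosome 7 members held 0.954 and 0.963 times the density of all members in sgControl, 1.01 and 1.01 times in SKO and 0.753 and 0.753 times in DKO, and H3K9me3 domains 0.973 and 0.972, 0.971 and 0.961, and 0.837 and 0.854 times. On chromosome 6, where the PKHD1 extension lay, the H3K27me3 ratio was 1.05 and 1.04 in sgControl, 1.32 and 1.33 in SKO and 1.33 and 1.34 in DKO. On chromosome 18 this ratio was 0.991 and 0.995 in sgControl, 0.876 and 0.880 in SKO and 0.909 and 0.908 in DKO. The part of these density differences in the calls was not tested, and neither was the copy number of these chromosomes, since the inputs were not analysed here. The domains called whole numbered 224 of 769 in SKO and 247 of 769 in DKO without chromosome 7, and the H3K9me3 falls 310 (40.3%) and 226 (29.4%).

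**Figure D5:**
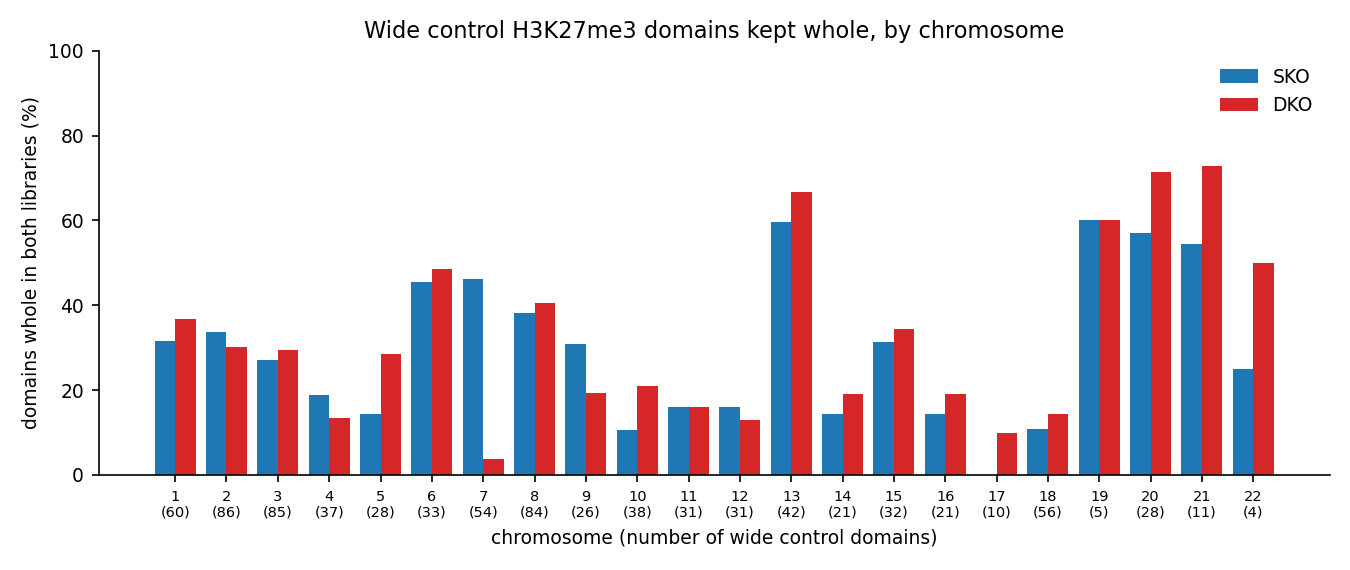
Percent of the very wide domains that were whole in both libraries of SKO (blue bars) or DKO (red bars) on each chromosome (horizontal axis, number of domains in brackets). Chromosome 7 has 46.3% whole in SKO and 3.70% in DKO, chromosome 13 has 59.5% and 66.7%, and chromosome 18 has 10.7% and 14.3%.

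Single chromosome 7 members illustrate this, and the DPP6 domain named above is an exception, with 100% and 98.2% H3K27me3 in DKO and more H3K9me3 there than in sgControl. The 2843.2 kb domain over AUTS2, a neurodevelopmental gene whose protein joins a Polycomb complex (chr7:67354401-70197600), was 1 piece in both sgControl libraries, 3 and 7 in SKO and 22 and 30 in DKO, and its H3K9me3 was 72.4% and 65.4%, 56.0% and 59.1%, and 22.5% and 18.5%. The domain over the diacylglycerol kinase gene DGKB (chr7:14319201-14647200) was 1 piece in sgControl and SKO and 11 and 10 pieces in DKO, with H3K27me3 cover of 100% and 99.8% in SKO and 74.4% and 72.2% in DKO. Its H3K9me3 was already 0% in both SKO libraries. At SDK1, an adhesion molecule gene (chr7:4267201-4582400), H3K27me3 cover was 83.5% and 85.0% in SKO and 52.0% and 47.0% in DKO. Over RELN, the reelin gene (chr7:103376801-104122400), H3K9me3 was 54.1% and 52.0% in sgControl, 93.3% and 90.2% in SKO and 29.9% and 31.2% in DKO (DKO minus SKO -61.2, SE 1.64, limma adjusted p = 0.00522).

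By gene content, 1001 of 19122 autosomal protein-coding genes (5.23%) had most of their body in a very wide domain. Neuronal adhesion and guidance genes were there in 30 of 66 cases (45.5%), non-clustered protocadherin genes in 5 of 9, classical and type II cadherin genes in 8 of 23, glutamate and GABA receptor genes in 12 of 48, olfactory receptor genes in 90 of 389, homeobox regulators outside HOX in 16 cases (15.8%) and regulators of the SOX, FOX, TBX, ZIC, GATA and bHLH families in 13 of 69. None of 39 HOX genes, 55 keratin genes, 15 myeloid genes, 18 housekeeping genes or 21 Polycomb and H3K27 demethylase genes were. The length of neuronal adhesion genes was not matched in these shares.

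Gene by gene, a loss or gain was called where the libraries of a knockout did not overlap those of sgControl, with 25 percentage points or more of the gene body between the closest pair. Of the 1001 genes, 69 lost H3K27me3 in SKO (3.23% of all genes called) and 65 in DKO (3.10% called), and none gained it (against 3.06% and 3.47% of all genes), which the choice of domains with full control cover all but fixes. For H3K9me3, 268 lost it in SKO (26.8%, against 4.57% of all genes) and 14 gained it (against 4.09%), and 179 lost it in DKO (17.9%, against 4.32%) and 37 gained it (against 3.73%). These calls have no test, and a gene that starts with neither mark cannot lose it, which lowers the shares over all genes.

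Many neuronal adhesion and guidance genes lost H3K9me3 while keeping H3K27me3. None of the 30 lost H3K27me3 in either knockout, where 6.89% and 6.49% of all 1001 genes did. For H3K9me3, 16 lost it in SKO and 10 in DKO, where 26.8% and 17.9% of all 1001 genes did, and 1 and 2 gained it. ROBO2, the Slit receptor gene, had H3K9me3 of 70.2% and 67.8% in sgControl, 0% in both SKO libraries and 14.5% and 13.8% in DKO. CNTN6, a contactin gene, had 84.1% and 77.2% in sgControl, 0% in both SKO libraries and 25.2% and 0% in DKO. OPCML, an adhesion gene with little H3K9me3 in sgControl (3.7% and 4.8%), had 6.7% and 7.1% in SKO and 45.6% and 42.2% in DKO.

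The counts of the next gene sets stand beside losses over all 1001 genes of 26.8% in SKO and 17.9% in DKO for H3K9me3. For H3K27me3 the shares were 6.89% and 6.49%. Of the 5 non-clustered protocadherin genes, 4 lost H3K9me3 in SKO and 2 in DKO, none lost H3K27me3. PCDH17 went from 100% H3K9me3 in both controls to 11.3% and 22.3% in SKO and 78.7% and 69.9% in DKO, and PCDH7 from 90.6% and 88.2% to 0% in both SKO libraries and 12.8% and 16.9% in DKO. Among 17 ion channel genes, 10 lost H3K9me3 in SKO and 9 in DKO, including the sodium channel genes SCN2A (87.4% and 92.8%, 13.1% and 0%, 21.8% and 7.8%) and SCN3A (95.9% and 62.5%, 0% and 0%, 26.82% and 21.97%). The calcium channel gene CACNA1D lost both marks in both knockouts, with H3K27me3 at 100% in sgControl, 60.2% and 62.9% in SKO and 64.9% and 61.6% in DKO. Among 8 cadherin genes, CDH2, CDH7 and CDH19 lost H3K9me3 in both knockouts, and CDH2 went from 97.7% and 78.7% to 0% in all 4 knockout libraries.

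Some developmental regulators lost H3K27me3. Of the 16 homeobox genes, 3 lost it in SKO and 4 in DKO, and of the 13 SOX, FOX, TBX, ZIC, GATA and bHLH genes 2 lost it in SKO and 0 in DKO, where 6.89% and 6.49% of all 1001 genes did. LHX5, a neural LIM-homeobox gene, was 100% covered in sgControl, 0% in SKO and 55.6% in both DKO libraries. NKX2-1, the thyroid and lung regulator, was at 100%, at 10.5% and 73.1% in SKO and at 0% in DKO, and NKX2-2 was at 36.7% and 29.9% in SKO and 43.6% and 50.4% in DKO. LHX5 and NKX2-1 had no H3K9me3 in any library. SOX11, a neural SOX gene, was at 68.7% H3K27me3 in both SKO libraries and 100% in DKO, and its H3K9me3 went from 100% in sgControl to 0% in SKO and 13.5% and 0% in DKO. TWIST1, the mesodermal bHLH regulator, kept 100% H3K27me3 in every library while its H3K9me3 went from 100% to 0% in all 4 knockout libraries.

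Among 13 collagen, ADAM and ADAMTS genes, 2 lost H3K27me3 in each knockout and 5 lost H3K9me3 in SKO and 2 in DKO. Over all 1001 genes, 6.89% and 6.49% lost H3K27me3 in SKO and DKO, and 26.8% and 17.9% lost H3K9me3. ADAMTS9 was at 100% H3K27me3 in sgControl and 0% in every knockout library, and COL22A1 went from 94.8% and 95.3% to 68.4% and 65.5% in SKO and 65.5% and 65.2% in DKO. COL3A1, a fibrillar collagen gene, kept 100% H3K27me3 throughout, with H3K9me3 of 100% in sgControl, 12.4% and 0% in SKO and 37.5% and 89.6% in DKO. Of the 10 WNT, BMP, FGF and hedgehog pathway genes, BMP4 lost H3K27me3 in SKO (21.7% and 9.3%, with 100% and 31.7% in DKO), and FGF9 gained H3K9me3, from 0% to 25.4% and 44.6% in SKO and 69.8% and 100% in DKO. Of 90 olfactory receptor genes, 4 lost H3K27me3 in each knockout, and 16 lost H3K9me3 in SKO and 5 in DKO, beside the same shares over all 1001 genes.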

How the data were processed

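H3K27me3 and H3K9me3 domain lists of 2 libraries per genotype and SETDB1 peak lists of 2 WT libraries were used. Per the file headers, the authors deposited for each domain the count of ChIP reads and a score. The deposited peak lists hold a −log10 p value per peak, used only to describe them. Per the submitters' processing notes the builds are hg38 and dm6 and the tools include SICER, Trim Galore 0.6.10, FastQC 0.12.1 and deepTools 3.5.6; a Drosophila spike-in is named in the labels' protocols and was not used here, since called length carries no spike-in scale. Domain ends follow an 800 bp grid with gaps of at least 4000 bp, per the values. The p threshold of the domain calls and their aligner were not stated in the sources used here.

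The members, classes, gene lists and tests were chosen with earlier results of these data known. Named domains are the widest 5 and, per knockout, those with the lowest cover, the most pieces, the smallest largest piece, the longest extension and the least breaking, the largest DKO minus SKO differences, the largest called H3K9me3 changes and those nearest the width threshold; named genes lie in them or in fixed lists. A few named items are not reported here. Cover was computed with Python 3.11.15, numpy 2.4.6 and pandas 2.3.3. The limma 3.58.1 test (R 4.3.3; mean trend, robust) ran on cover in percent of 9630 domains with 6 libraries per mark. Tested on simulated data for DKO against sgControl, it recovered 67 of 100 members lowered by 40 percentage points in H3K9me3 and 0 of 100 in H3K27me3. A spread trend on width recovered 100 in H3K27me3. Unchanged domains called falsely numbered 37 in H3K9me3 and 0 in H3K27me3, and 45 in H3K27me3 with the trend on width. In each case 0 of them were members. Gene positions and promoters came from RefSeq on GRCh38.p14 (19122 autosomal protein-coding genes, 15100 with a promoter); promoters printed are 1 for each of the 3 longest lost and kept stretches with a gene start matched in the promoter table, outside chromosome 8. Replicate numbers do not pair the libraries by any label. Alternatives changed the width minimum, the control list, the score cut, joined gaps, thresholds, scale, block and single libraries.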

Additional observations from a re-analysis of the deposited data

How the results depend on the processing

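Shares of members or edges are given as SKO and DKO. Joining gaps of up to 10 kb gave 78.5% and 74.6% whole and 10.8% and 13.1% in pieces, and up to 20 kb 87.6% and 83.7% whole and 6.68% and 7.65% in pieces. Called losses were 10.1% and 12.5% at 10 percentage points and 0.608% and 0.729% at 50. Retracted edges were 6.501% and 6.622% at 20 kb and 0.972% and 0.851% at 100 kb. With equal covered length by score, losses in SKO were 5.35% and retracted edges 4.80% and 5.04%. Keeping each list's better-scored 50%, losses were 5.30% and 6.78%, retracted edges 5.06% and 5.49%, and DKO members shrunk or lost 6.41%. With a width minimum of 500 kb, DKO members shrunk or lost and called losses were both 2.63%. Leaving out 1 H3K27me3 library gave extended edges of 8.82% to 14.4% in SKO and 9.06% to 15.5% in DKO.

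Members with lower H3K27me3 cover in DKO than in SKO numbered 4 on an arcsine scale, 26 (13 higher) with no minimum difference, 12 (2 higher) at equal covered length, 1 without chromosome 7, 0 with the 4 knockout libraries alone (chosen after seeing the data) and 0 to 9 when leaving out 1 library. For H3K9me3 in DKO against SKO, higher and lower members numbered 0 and 0 among domains of at least 50 kb, 20 and 6 on an arcsine scale, 22 and 9 without trend or robust spread, 17 and 3 at equal covered length, 21 and 0 without chromosome 7 and 19 and 3 with the spread trend on width, an alternative chosen after seeing the data; higher members were 78 with no minimum difference. Leaving out 1 library gave 1 to 24 higher and 0 to 10 lower. Against sgControl, higher members were 19 in SKO and 60 in DKO with no minimum difference, and 4 in SKO without chromosome 7; at equal covered length higher and lower were 23 and 166 in SKO and 76 and 141 in DKO, and leaving out 1 library gave 3 to 10 higher in SKO and 12 to 32 in DKO. The 2 fits without an sgControl H3K9me3 library used a spread estimate that is not robust. The cause of these shifts was not tested.

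With the replicate number as a block, H3K27me3 calls of lower cover in DKO than in SKO went from 7 to 3 and H3K9me3 calls of DKO against SKO from 40 and 15 to 0 and 0. The deviations of same-numbered libraries correlated at -0.022 to 0.0241. Cover has an upper limit, and the first sgControl library of H3K27me3 lies at it in every domain by construction. These correlations therefore cannot decide whether same-numbered libraries share more than a number, and this was not tested. The other 232 values under alternatives to the shares and counts stayed within 1.5 times of the reported ones. Part of these could not change. Leaving out an H3K27me3 library of a knockout does not touch the shares of the other knockout. Dropping the condition on the second control library, or that library, left the same members and shares. The 232 values are therefore not a measure of how stable the results are. Reads in H3K27me3 domains ran from 45.5 to 67.6 M, and the part of depth in the short gaps was not tested.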
